A study of Homo sapiens with 9 samples.

Results

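Deep intronic peaks were defined here as merged peaks whose centre lay in an intron of an Ensembl canonical coding transcript on the same strand, more than 500 nt from both ends of that intron and outside the exons of every other transcript on that strand. Of 2478204 merged peaks in 54 libraries, 610093 (24.6%) met this definition, while 58.4% lay in exons, 11.9% in introns within 500 nt of an end and 5.02% elsewhere. All peaks came from antibody-barcode eCLIP (ABC), in which RNA fragments crosslinked to an RNA-binding protein (RBP) are ligated to a DNA barcode carried by the antibody, so that several RBPs are read from the same tube. The cells were K562, a human erythroleukemia line, and HEK293T, a human embryonic kidney line, crosslinked with ultraviolet light, and the labels name no further treatment. The 10plex pools held antibodies to DDX3, EIF3G, FAM120A, IGF2BP2, LIN28B, PRPF8, PUM2, RBFOX2, SF3B4 and ZC3H11A and were made from K562 (3 replicates, 748856 peaks, 63412 deep) and HEK293T (2 replicates, 1191120 peaks, 243680 deep). Singleplex experiments covered RBFOX2 in HEK293T (2 replicates, 532040 peaks, 301649 deep) and SLBP in K562 (2 replicates, 6188 peaks, 1352 deep). The cell line field of both HEK293T pools names K562, whereas their titles and source names give HEK293T, and the same field of K562 replicate 3 reads K563. Reads in the peaks of a library ran from 13351 to 4414702. Summed over a pool, the 11 K562 marker genes held 598, 991 and 629 peaks in the K562 pools and 2 in each HEK293T pool, and the 6 HEK293 marker genes held 5, 6 and 6 peaks in K562 against 245 and 309 in HEK293T. Among the HEK293 markers, CDH2 alone held 123 and 163 of the HEK293T peaks. NEFH went the other way, with 0 peaks in both HEK293T pools and 2, 3 and 0 in K562. The summed marker counts therefore followed the titles. No source says that replicates came from separate cultures, so the p-values below speak only for these pools. Those between RBPs rest on permuting RBP labels within pools and do not measure the spread between replicates. Those between cell lines or methods rest on permuting pools or libraries.

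Introns are removed from the nascent transcript by the spliceosome, which recognises a 5′ splice site at the start of the intron, a branch point, and a pyrimidine-rich 3′ splice site at its end. Most of a long intron lies far from these signals, and an RBP bound there is usually taken as a sign of nuclear binding to unspliced RNA. RBFOX2 is a splicing regulator that recognises GCAUG, read as GCATG in the genome. SF3B4 belongs to the complex that recognises the branch point, and PRPF8 is the core protein at the catalytic centre of the spliceosome. LIN28B binds the let-7 precursors and GGAG-containing sites, PUM2 binds the Pumilio element in untranslated regions of mRNAs, and EIF3G and DDX3 (an RNA helicase) act in translation. IGF2BP2 binds and stabilises mRNAs, ZC3H11A is a zinc finger protein of mRNA export, and SLBP binds the stem-loop of histone mRNAs.

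Enrichment in the 10plex was taken over the complement control (CC), made of the reads that carry any of the other 9 barcodes in that tube, with P below 0.001 and a fold above 8, and a CC of 0 reads was counted as 1. Because each CC is made of the other libraries, the 10 enrichments of a pool are not independent. Sequences are given first for sites chosen among the first 3 genes per RBP by mean log2 fold, not always the highest. Coordinates are GRCh38 throughout, sequences run 5′ to 3′ on the peak's strand, and values follow the order of replicates 1, 2 and 3. Among the deep sites enriched in all 3 K562 replicates, RBFOX2 was strongest in HDAC4, a histone deacetylase, at chr2:239365855-239365906 on the minus strand, 12962 nt from the nearer end of intron 1, with 73, 184 and 96 reads and log2 folds of 6.04, 6.21 and 6.20. The second was HPCAL1, a neuronal calcium sensor, at chr2:10335988-10336022 on the plus strand in intron 1, with 292, 539 and 434 reads and log2 folds of 5.91, 6.26 and 5.88. Within 150 nt on both sides of these peaks GCATG occurred 9 times at HDAC4 and 8 times at HPCAL1. The third, in NADSYN1, had 16, 35 and 21 reads, no GCATG in the peak and 1 within 150 nt. Capitals mark GCATG.
RBFOX2 HDAC4: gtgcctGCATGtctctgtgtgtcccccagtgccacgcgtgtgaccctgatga
RBFOX2 HPCAL1: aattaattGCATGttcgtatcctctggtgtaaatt

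The leading PRPF8 site without copies of the study's own oligonucleotides lay in TENT2, a poly(A) polymerase, at chr5:79614537-79614595 on the plus strand, 1490 nt into intron 1. It carried 10, 7 and 21 reads and log2 folds of 4.87, 3.72 and 5.46, and the nearest annotated exon of any transcript was 483 nt away. The LIN28B site in the last intron of IGF2BP2, the gene of another RBP of the pool, at chr3:185646366-185646414 on the minus strand, had 20, 38 and 29 reads and log2 folds of 6.35, 7.04 and 7.43. The FAM120A site in RBM15, an adaptor of the RNA methylation complex, at chr1:110343604-110343689 on the plus strand, had 140, 252 and 124 reads and log2 folds of 6.02, 5.76 and 5.36. Capitals mark a 5′ splice site motif (GTAAG or GTGAG) in the PRPF8 peak. The LIN28B peak held no GGAG, and no motif was searched for FAM120A.
PRPF8 TENT2: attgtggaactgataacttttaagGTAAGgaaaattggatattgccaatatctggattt
LIN28B IGF2BP2: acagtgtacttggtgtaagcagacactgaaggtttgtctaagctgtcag
FAM120A RBM15: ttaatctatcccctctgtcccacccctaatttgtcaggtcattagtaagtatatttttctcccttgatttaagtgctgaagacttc

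For many other top sites the genome itself spelled a 5-base barcode of the study followed by the first 5 bases after it in the barcode oligonucleotide, AGATC. These 10-base strings (at most 1 mismatch, same strand, within 30 nt of the peak) are called barcode words below, and they are shown because they lay at every named site of DDX3, EIF3G, IGF2BP2, SF3B4 and ZC3H11A. Each line gives the peak with 30 nt on both sides, with the barcode word in capitals. The DDX3 site in NAV2 lay at chr11:19739924-19739947 on the plus strand, 25973 nt into intron 1, with 5, 30 and 30 reads, and the CC had 0 reads in replicate 1 and 1 in replicate 2. The EIF3G site in ARL15 lay at chr5:54276402-54276415 on the minus strand, 34022 nt into intron 1, with 50, 183 and 309 reads and log2 folds of 10.37, 10.14 and 10.40. The SF3B4 site in CDKAL1 lay at chr6:21045203-21045225 on the plus strand, 19833 nt from the end of intron 11, with 28, 143 and 117 reads, beside 0 and 5 CC reads in replicates 1 and 2. The ZC3H11A site in PTPRJ lay at chr11:48080666-48080688 on the plus strand in intron 1, with 5, 5 and 8 reads, beside 1 and 0 CC reads. The IGF2BP2 site in GPC6 lay at chr13:93763996-93764013 on the plus strand, 66148 nt from the end of intron 2, with 3, 5 and 18 reads and no CC reads in replicates 1 and 2.
DDX3 NAV2: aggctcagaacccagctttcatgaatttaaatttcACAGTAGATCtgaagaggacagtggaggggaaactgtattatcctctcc
EIF3G ARL15: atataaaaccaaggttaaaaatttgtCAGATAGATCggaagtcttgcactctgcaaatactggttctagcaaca
SF3B4 CDKAL1: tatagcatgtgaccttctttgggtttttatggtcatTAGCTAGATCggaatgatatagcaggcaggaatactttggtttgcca
ZC3H11A PTPRJ: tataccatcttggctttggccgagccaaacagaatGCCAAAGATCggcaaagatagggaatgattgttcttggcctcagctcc
IGF2BP2 GPC6: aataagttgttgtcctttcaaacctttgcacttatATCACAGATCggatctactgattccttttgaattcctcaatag

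These 5 sites shared AGATC, and the 5 bases before it differed between RBPs. The other named K562 sites with a barcode word within 30 nt were EMX1 (DDX3), DYRK1A and PAK5 (EIF3G), ZCCHC7 and KIAA1958 (FAM120A), C2orf76 (IGF2BP2), an intron of ENSG00000284512 (LIN28B), MAMLD1 (PRPF8), TSHZ1 and DCHS2 (SF3B4), and LRGUK and DIS3L2 (ZC3H11A). LIN28B in PMM2 and PRPF8 in CHKA, the latter 7 nt from an exon of another transcript, had none.

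RBFOX2 supplied most deep intronic peaks, and it was the RBP with the largest deep share in each 10plex pool. RBFOX2 libraries held 503571 of the deep peaks (82.5%) and FAM120A libraries 53936 (8.84%). The RBFOX2 total includes 301649 deep peaks of its singleplex libraries, which no other RBP of the 10plex had. In the 3 K562 pools the deep share of merged RBFOX2 peaks was 22.97%, 29.94% and 21.85%, with a mean of 24.9% ± 4.38 (SD, n = 3) against 4.84% for the other 9 RBPs. The RBFOX2 values lay above those of every other RBP in all 3 pools, and the exact two-sided permutation of RBP labels within pools gave p = 0.001, the smallest that 3 pools allow, and an adjusted p of 0.01 over 10 RBPs. FAM120A followed with 8.83% ± 2.23 (8.90%, 11.03% and 6.57%; adjusted p = 0.96, exact permutation, n = 3), and its values overlapped with those of ZC3H11A, PUM2 and LIN28B. The lowest mean shares were those of the spliceosome protein PRPF8 (2.38% ± 0.29), the helicase DDX3 (2.69% ± 0.50), IGF2BP2 (3.10% ± 0.74) and SF3B4 (3.76% ± 0.20), none of which passed the test. With only 2 replicates the smallest p is 0.01 before adjustment over the 10 RBPs, so an RBP that stands alone cannot pass with 2 pools.

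**Figure D1:**
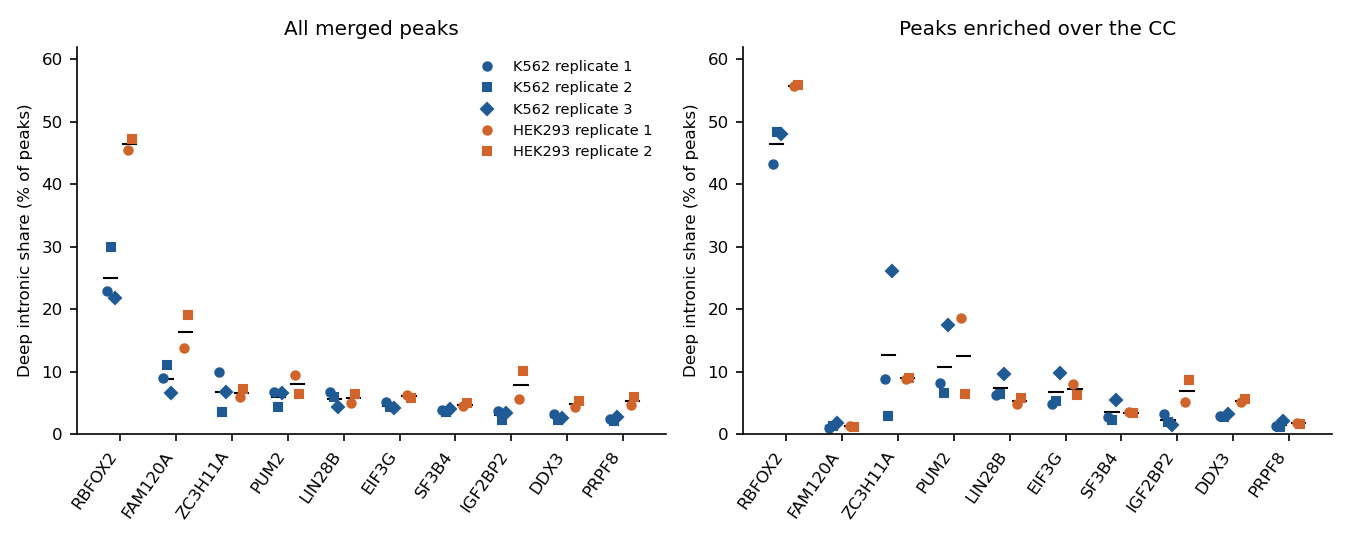
Deep intronic share of all merged peaks (left, % of a library's peaks) and of the peaks enriched over the CC (right) for the 10 RBPs, with a point for each 10plex replicate and a line at the mean. The RBFOX2 points lie above all others in each pool, with the other RBPs below 20% except for ZC3H11A replicate 3 among enriched peaks, at 26.2%.

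The share that peaks enriched over the CC had in deep introns separated RBFOX2 further. In K562, 43.2%, 48.3% and 48.0% of enriched RBFOX2 peaks were deep (mean 46.5% ± 2.85, n = 3), against 5.43% for the other 9 RBPs (adjusted p = 0.01, exact permutation). In HEK293T both RBFOX2 values were higher, at 55.7% and 55.9%. There the lists over the CC lacked 39.2% and 44.8% of deep RBFOX2 peaks, against 16.7% and 18.9% of the other RBFOX2 peaks. The lists over the CC left out peaks in repeats in K562 replicates 1 and 2, where they held 74.2% to 92.0% of a library's merged peaks, against 91.4% to 99.2% in replicate 3. ZC3H11A varied most, with 8.89%, 2.90% and 26.2% of its enriched peaks deep, and its replicate 3 held 237 deep enriched peaks against 80 and 71 in the other two. FAM120A went the other way. It had the second largest deep share of merged peaks but only 0.95%, 1.26% and 1.81% of its enriched peaks were deep. Folds over the CC are scaled by a library's share of the pool, so equal reads give unequal folds. With 0 CC reads in replicate 1, 9 FAM120A reads in ZCCHC7 gave a log2 fold of 4.38. In the same replicate, 3 LIN28B reads beside 0 CC reads at ENSG00000284512 gave 5.61. Of deep FAM120A peaks in K562, 74.2% ± 2.95 (n = 3) held 3 or 4 reads. The part of library size in these shares was not tested.

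The same contrast appeared when deep peaks were set beside all peaks tested over the CC. In K562, 23.9% of 21515 deep RBFOX2 peaks were enriched, where the background over all tested peaks of the libraries was 10.7%. For FAM120A 3.44% of 10454 deep peaks were enriched against 18.3% of all. LIN28B had 71.4% of 1639 deep peaks enriched against 37.4% of all, EIF3G 66% against 32.2%, PUM2 80.7% of 135 against 31.1%, ZC3H11A 68.2% against 22.4%, and DDX3 30.7% against 21%. SF3B4 lay nearer to its background, with 36.1% of deep peaks against 29.9%. The shares for deep peaks were at or below the background in PRPF8, with 16.9% against 22%, and in IGF2BP2, with 10.1% against 11.9%. IGF2BP2 replicate 3 sets its pooled direction, with 2.45% of deep peaks against 6.02% of all, whereas the shares were 31.5% against 18.8% and 22.9% against 17.3% in the other replicates. SF3B4 replicate 2 was below its background, at 26.5% against 28.6%, and its replicates 1 and 3 were above theirs. These are descriptions of peaks pooled over the replicates, without a test. With no CC reads, a library with a smaller share of the pool passes the fold limit on fewer reads. Mean reads in peaks ran from 16219 for PUM2 to 1315920 for FAM120A. EIF3G had 41196, and RBFOX2, which was above its background too, had 495022. The part of library size in these shares was not tested.

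In HEK293T the deep share was again above the background for LIN28B (41% against 27.3%), PUM2 (58.9% against 22.5%), EIF3G (32.3% against 20.1%), ZC3H11A (28.8% against 11.8%) and DDX3 (20.1% against 12.6%). RBFOX2 had 7.83% of 97747 deep peaks enriched against a background of 5.32%, SF3B4 25% against 23.4%, and IGF2BP2 5.46% against 4.92%. FAM120A (2.1% against 20.5%) and PRPF8 (9.01% against 17%) were below the background in this line too. Mean reads in peaks ran from 33099 for PUM2 to 2085950 for FAM120A in HEK293T, and their part in these shares was not tested. Over the external background the deep shares called were close to all peaks for RBFOX2, at 9% against 10% in singleplex and 8.95% against 9.2% in the HEK293T 10plex, and for SLBP 43% of deep peaks were called against 55.3% of all.

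Deep peaks were shallow. The median deep peak held 3 to 5 reads in every library, and between 54.8% and 83.1% of the deep peaks of a HEK293T 10plex library rested on 3 or 4 reads. On average over the 10 RBPs, 32.8% of deep K562 peaks were touched by a peak of the same RBP in another replicate, against 51.6% of all peaks. Deep enriched peaks recurred more often in FAM120A (81.2% ± 8.24), RBFOX2 (68.5% ± 16.1) and PRPF8 (64.3% ± 8.62) than on average (43.5%), and least often in IGF2BP2 (19.96% ± 19.83) and ZC3H11A (23.6% ± 5.47). Among deep peaks with at least 10 reads the mean rose to 69.6%. Intervals of single shares would cover counting error only and are not given, since peaks of a library are not independent molecules.

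GCATG was the sequence that deep RBFOX2 peaks had in common. With 50 nt added on both sides, 64.5%, 68.7% and 72.8% of 1075, 2466 and 1611 deep enriched K562 peaks held GCATG on their strand (mean 68.7% ± 4.17, n = 3), against 10.3% in deep enriched peaks of the other 9 RBPs (adjusted p = 0.00167 over 5 motifs, exact permutation). Windows of equal length 300 nt upstream of the RBFOX2 peaks held it in 19.5%, 19.5% and 19.1%. All peak values lay above all window values. In HEK293T the shares were 73.6% and 70.5% in the 10plex, beside 21.99% and 26.70% upstream. The share did not fall with distance from exons: it was 68.9% ± 4.92 in deep peaks more than 500 nt from exons of every transcript, 65.4% ± 3.20 in intronic peaks near the intron ends and 59.6% ± 6.12 in exonic peaks and the ranges of the replicates overlapped. The motif was most frequent 10 to 20 nt before the centre of the peak, in the 10-nt bin where 16.1% of K562 peaks held it against 1.91% per bin beyond 150 nt.

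**Figure D2:**
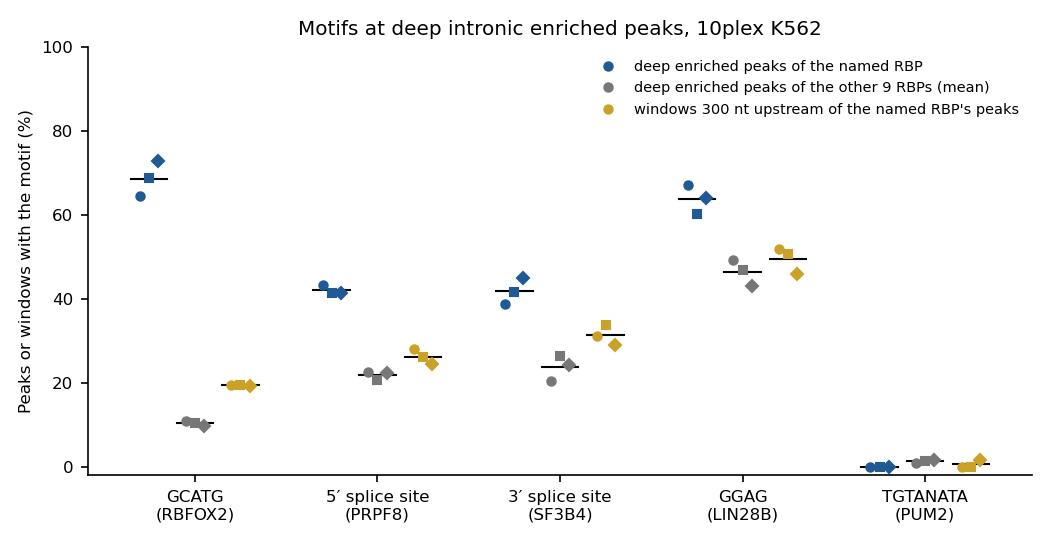
Share of deep enriched peaks in the K562 10plex (% with 50 nt on both sides) that held each motif, for the RBP named under it (blue), for the mean of the other 9 RBPs (grey) and for windows 300 nt upstream (yellow), with a point for each replicate (circle 1, square 2, diamond 3) and a line at the mean. GCATG separates most, at 68.7% against 10.3%, and TGTANATA was found in no deep enriched PUM2 peak.

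Splice site motifs were more frequent in deep PRPF8 and SF3B4 peaks than on average in those of the other RBPs, although most peaks lacked them. GTAAG or GTGAG was found in 43.2%, 41.5% and 41.3% of 132, 176 and 208 deep enriched PRPF8 peaks (mean 42.0% ± 1.02, n = 3), against 21.8% for the other RBPs (adjusted p = 0.00167, exact permutation) and 28.0%, 26.1% and 24.5% upstream. A 3′ splice site motif, 12 bases with at least 10 T or C ending 0 to 3 bases before CAG or TAG, was found in 38.7%, 41.5% and 45.0% of 106, 207 and 282 deep enriched SF3B4 peaks (mean 41.8% ± 3.18, n = 3), against 23.7% for the others (adjusted p = 0.00167, exact permutation) and 31.1%, 33.8% and 29.1% upstream. In HEK293T the shares were lower, at 30.1% and 31.9% for PRPF8 (20.7% and 23.5% upstream) and 36.8% and 31.2% for SF3B4 (25.8% and 27.8% upstream), 8.87 and 9.32 percentage points above the mean of the other RBPs. The SF3B4 values in HEK293T overlapped with those of RBFOX2, which held the 3′ splice site motif in 32.3% to 34.3%. The SF3B4 call depended on the added flanks: within the peak alone the difference was 3.31 percentage points (adjusted p = 0.18, exact permutation, n = 3). The 3′ splice site motif was most frequent 30 to 40 nt downstream of the centre of SF3B4 peaks (10.3% against 2.78% per bin beyond 150 nt), and the 5′ splice site motif lay in the 10 nt before the centre of PRPF8 peaks (13.3% against 2.18%).

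**Figure D3:**
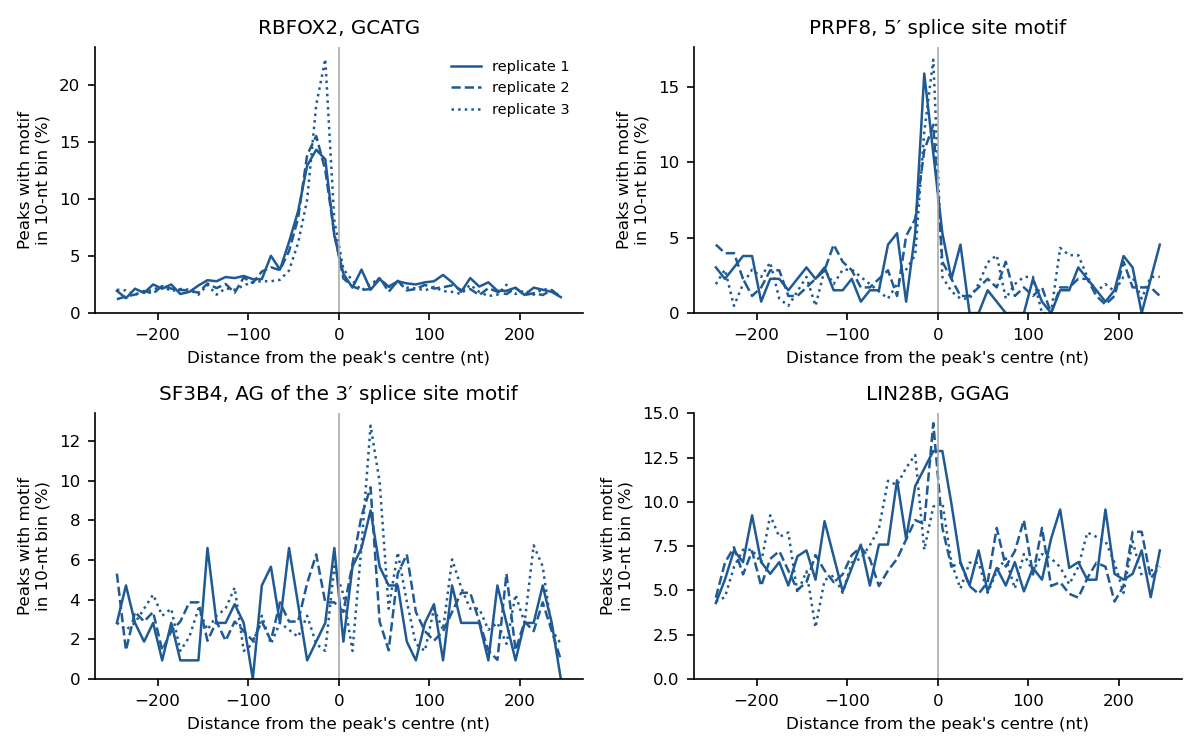
Share of deep enriched K562 peaks (%) with the motif in each 10-nt bin, by distance from the peak's centre (nt, negative upstream), with a line for each replicate. RBFOX2 and PRPF8 motifs peak just upstream of the centre, at 16.1% and 13.3%, the SF3B4 motif 30 to 40 nt downstream at 10.3%, and GGAG in LIN28B rises to 12.3% over 6.45%.

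Many of these splice site peaks lay beside exons of other annotated transcripts. Such an exon may belong to the same gene or to an overlapping gene on that strand, and these were not separated. A peak near an end of one canonical intron still counted as deep where it lay deep in a canonical intron of an overlapping gene. In K562, 50.0%, 41.5% and 38.9% of deep enriched PRPF8 peaks and 21.7%, 30.9% and 25.9% of deep enriched SF3B4 peaks were within 100 nt of an exon of another transcript of either kind, compared with 0% to 7.14% for the libraries of the other RBPs. In HEK293T these shares were 18.4% and 19.0% for PRPF8 and 27.1% and 18.8% for SF3B4. The motif share followed the distance: the SF3B4 motif was present in 65.9% ± 3.54 of the peaks within 100 nt of such an exon and in 34.7% ± 3.05 of those more than 500 nt from every exon, where the upstream windows held it in 28.6% ± 1.37. For PRPF8 the values were 50.2% ± 4.46, 33.7% ± 2.95 and 24.8% ± 1.85. In intronic peaks near the ends of canonical introns the shares were 65.0% ± 0.39 for SF3B4 and 64.2% ± 0.39 for PRPF8.

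At 15 K562 loci a deep enriched SF3B4 peak was followed 50 to 400 nt downstream by a deep enriched PRPF8 peak, the order in which the 3′ and 5′ splice sites of an exon occur. PRPF8 followed SF3B4 in 4, 5 and 9 cases in the 3 replicates and preceded it in 0, 3 and 1. In HEK293T it followed in 5 and 1 and preceded in none, beside RBFOX2, which followed in 4 cases and preceded in 2 over both replicates, and IGF2BP2, which followed in 2. Summed over the 3 K562 replicates, RBFOX2 followed SF3B4 in 4 cases and preceded it in 2, although it had 5152 deep enriched peaks against 516 for PRPF8, and no other RBP followed it in K562. The pair recurred in all 3 replicates in MAPK14, the p38 kinase, with the 2 peaks 135 to 156 nt apart and 6323 nt from any annotated exon, and in 2 replicates in LUC7L2, a splicing factor, 132 to 152 nt apart and 4863 nt from any exon. The remaining 13 loci were found in 1 replicate each, among them SDE2, HELLS and a locus of ENSG00000258472. Of these, DHX9, SDE2, TARBP1 and NEK7 lay 121, 549, 787 and 2697 nt from an annotated exon. The others lay only 30 to 55 nt from an exon of another transcript. The MAPK14 span at chr6:36089627-36089828 on the plus strand in intron 8 and the LUC7L2 span at chr7:139365152-139365376 on the plus strand in intron 1 run from the start of the SF3B4 peak to the end of the PRPF8 peak, with 5′ and 3′ splice site motifs in capitals. The MAPK14 span held none of them as spelled here. In the LUC7L2 span the marked 3′ motif came after the marked GTAAG and lay within the PRPF8 peak. The SF3B4 peaks of this locus were not scored as holding a 3′ splice site motif. The marked motifs of LUC7L2 are therefore not in the order of the pair.
MAPK14: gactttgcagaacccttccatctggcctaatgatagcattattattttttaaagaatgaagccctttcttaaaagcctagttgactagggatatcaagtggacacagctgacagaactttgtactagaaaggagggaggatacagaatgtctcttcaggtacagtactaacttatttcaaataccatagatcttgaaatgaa
LUC7L2: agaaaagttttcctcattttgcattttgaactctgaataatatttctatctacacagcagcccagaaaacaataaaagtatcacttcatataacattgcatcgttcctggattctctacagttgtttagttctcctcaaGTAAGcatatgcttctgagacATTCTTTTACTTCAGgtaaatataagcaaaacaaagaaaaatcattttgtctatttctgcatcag

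GGAG was found in 67.0%, 60.2% and 64.0% of 303, 457 and 411 deep enriched LIN28B peaks (mean 63.7% ± 3.42, n = 3), against 46.4% for the other RBPs (adjusted p = 0.03, exact permutation) and 51.8%, 50.8% and 46.0% upstream. The call was lost when any of the replicates was left out and in 4 other settings, although the difference kept its direction. Deep enriched PUM2 peaks also held GGAG, in 37.5%, 71.4% and 80% of cases in K562 and 83.3% and 55.2% in HEK293T. The most frequent barcode word of PUM2, TTAGG followed by AGATC, itself spells GGAG. That word lay at 0% to 60.0% of these peaks in K562 replicates and at 10.3% to 61.9% in HEK293T. Its part in the GGAG share of PUM2 was not tested. LIN28B peaks near the intron ends held it in 70.8% ± 2.53 and exonic ones in 66.7% ± 1.52 of cases in K562. TGTANATA, the Pumilio element, was found in 0 of 16, 28 and 65 deep enriched PUM2 peaks in K562, which by counting error alone allows a share of up to 18.8%, 10.7% and 4.62%, where the other RBPs had 1.28% (adjusted p = 0.109, exact permutation). Exonic PUM2 peaks held it in 16.4% to 37.1% of cases over the same 3 replicates, and HEK293T deep peaks in 0% and 3.45%. None of the 109 was enriched in all 3 replicates.

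Averaged over the K562 replicates, barcode words were more frequent in deep enriched peaks than in upstream windows or in enriched peaks outside deep introns for every 10plex RBP except RBFOX2. In K562 a word lay within 30 nt of 8.93%, 41.2% and 66.7% of deep enriched DDX3 peaks, whose most frequent barcode was ACAGT followed by AGATC. The barcode in parentheses below is the most frequent for each RBP, and the study's pairing of barcodes with antibodies was not used. For EIF3G (CAGAT) the shares were 17.9%, 39.0% and 45.0%, and for PUM2 (TTAGG) 0%, 25.0% and 60.0%. ZC3H11A (GCCAA) had 16.2%, 25.4% and 18.6%, SF3B4 (TAGCT) 12.3%, 20.8% and 18.4%, PRPF8 (ACTTG) 4.55%, 18.2% and 34.6%, FAM120A (TGACC) 3.90%, 11.4% and 30.6%, IGF2BP2 (ATCAC) 6.52%, 8.33% and 48.6%, and LIN28B (GATCA) 6.27%, 8.97% and 12.4%. In 7 of these 9 RBPs replicate 3 was the highest and replicate 1 the lowest. RBFOX2 stood apart, with 1.67%, 2.35% and 2.67%, at the level of its upstream windows (2.08%). The upstream windows of the other RBPs held a word in 0.72% to 3.45% on average, and enriched peaks outside deep introns in 1.79% to 8.34%.

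The words were specific to the library. The most frequent barcode was the same in both cell lines for each of these 9 RBPs, and in deep enriched peaks of the other RBPs that same barcode occurred in only 0.03% to 0.34% on average in K562. In HEK293T replicate 1 the share with any word was 61.9% for PUM2, 48.0% for EIF3G and 38.3% for DDX3, and in replicate 2 it was 10.3%, 9.82% and 6.13%. Replicate 1 was above replicate 2 for all 10 RBPs. A search for the first 13 bases after the barcode (same strand, within 30 nt, at most 1 mismatch) found it at 5.66% ± 2.69 of deep enriched K562 peaks for DDX3 (adjusted p = 0.11, exact permutation, n = 3), 5.28% ± 1.78 for EIF3G and 4.46% ± 3.89 for PUM2, and at none for RBFOX2 (0 of 1075, 2466 and 1611, which by counting error alone allows up to 0.279%, 0.122% and 0.186%), FAM120A, IGF2BP2 and ZC3H11A. The smallest of these libraries, IGF2BP2 replicate 3, had 35 such peaks, which allows up to 8.57%. No RBP was called.

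Sites found in every replicate were not free of these words. Of the deep peaks enriched in all 3 K562 replicates, 5 of 5 for DDX3, 7 of 7 for EIF3G, 2 of 2 for IGF2BP2 and 13 of 13 for ZC3H11A had a barcode word or a copy of the longer sequence, as did 9 of 18 for SF3B4, 12 of 49 for LIN28B, 3 of 20 for FAM120A, 2 of 10 for PRPF8 and 8 of 313 for RBFOX2. The part of the words in these enrichments was not tested. With all such peaks left out, RBFOX2 still was the only RBP called for the deep share of enriched peaks, and the motif calls of RBFOX2, PRPF8, SF3B4 and LIN28B remained past the threshold.

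**Figure D4:**
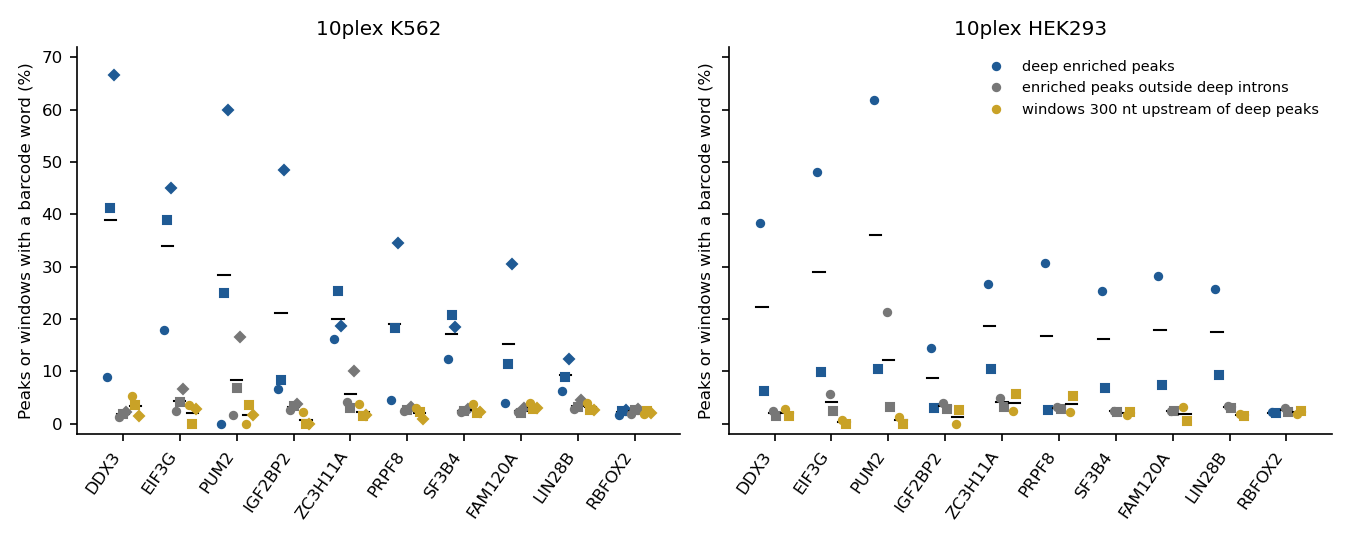
Share (%) with a barcode word within 30 nt in deep enriched peaks (blue), in enriched peaks outside deep introns (grey) and in windows 300 nt upstream of the deep peaks (yellow), by RBP, for the 10plex in K562 (left) and HEK293T (right), with a point for each replicate (circle 1, square 2, diamond 3) and a line at the mean. Deep peaks of DDX3, EIF3G and PUM2 reach 66.7%, 45.0% and 60.0% in K562 replicate 3, while RBFOX2 stays at 1.67% to 2.67%.

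RBFOX2 sites recurred across cell lines and methods. Of the 313 deep sites enriched in all 3 K562 replicates, in 194 introns of 186 genes, 234 (74.8%) held GCATG, 293 (93.6%) were touched by an RBFOX2 peak of the HEK293T 10plex and 242 (77.3%) by a deep enriched one. The sites lay 512 to 233600 nt from the nearer intron end (median 3307 nt), 31.9% of them more than 10 kb away, and 26.2% were in first introns. Peaks of the other 9 RBPs also touched them, most often FAM120A (68 sites) and least often PUM2 (5), but enriched peaks of the other RBPs touched only 2, both of EIF3G. FAM120B and HDAC4 held 8 of these sites each, and HPCAL1 and UNKL 7 each. Taken replicate by replicate, 78.5%, 75.0% and 84.8% of K562 deep enriched RBFOX2 peaks were touched by a RBFOX2 peak in HEK293T, whereas 37.6% and 35.1% of the HEK293T ones were touched in K562, where the libraries held fewer peaks.

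Singleplex RBFOX2 in HEK293T gave the largest deep shares of the series. In singleplex 58.9% and 52.8% of merged peaks were deep, against 45.5% and 47.3% in the 10plex of the same line (difference 9.44 percentage points, exact permutation p = 0.3333, the smallest that 2 against 2 allow). The singleplex values were both above the 10plex values. With both methods set over the external background, 94.6% and 95.5% of deep enriched 10plex peaks were touched by a singleplex peak, and 86.0% and 83.8% of deep enriched singleplex peaks by a 10plex peak. Deep enriched peaks held GCATG in 71.7% and 67.6% of cases in singleplex and 67.4% and 65.5% in the 10plex. All 4 libraries shared 3435 deep enriched sites in 1335 genes, 71.0% of them with GCATG.

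The strongest of these shared sites lay in U2AF2, which encodes a factor that recognises the 3′ splice site, at chr19:55670426-55670493 on the plus strand in the last intron. Reads were 3139 and 3907 in the 10plex and 4699 and 3750 in singleplex, and log2 folds over the external background 12.18, 11.65, 11.39 and 11.91 in that order. It lay 172 nt from an exon of another transcript. Its sequence is built of short repeated units, and GCATG occurred once within 150 nt. The next sites lay in DNM1, encoding the vesicle-scission GTPase dynamin, at chr9:128233461-128233490 on the plus strand (log2 folds 9.10, 8.83, 10.35 and 10.84, 88 nt from an exon of another transcript), and in GPI, a glycolytic enzyme, at chr19:34389606-34389729 on the plus strand (9.74, 9.04, 9.94 and 10.16). GCATG occurred 3 times within 150 nt at DNM1 and 2 times at GPI, and GPI also had a barcode word within 30 nt. The U2AF2 peak is shown for its repeated units and the GPI peak for its motif, with GCATG in capitals.
U2AF2: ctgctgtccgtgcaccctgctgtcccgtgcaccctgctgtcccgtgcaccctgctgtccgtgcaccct
GPI: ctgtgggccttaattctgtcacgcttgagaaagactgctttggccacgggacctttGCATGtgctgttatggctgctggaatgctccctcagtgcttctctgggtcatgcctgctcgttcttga

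SLBP, which acts on histone mRNAs without introns, had 975 and 377 deep peaks in its 2 replicates. Their share of merged peaks was 21.9% and 21.6%, but 79.0% and 71.6% of them rested on 3 reads, and 3.79% and 8.22% were touched by a peak of the other replicate against 12.1% and 25.9% of all SLBP peaks. In replicate 2 nearly every peak passed the limits over the external background (99.9% of all peaks and all 377 deep ones), against 37.8% of all peaks and 205 of 975 deep ones in replicate 1. The leading site in both replicates was a run of C in intron 1 of ACSL3, an acyl-CoA ligase, at chr2:222866743-222866766 on the plus strand in replicate 1, with 925 and 220 reads and a log2 fold of 13.1 in both. The deposited −log10 P of 400 is the highest value that the files hold.

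Deep peaks were found in 39518 introns (34.5% of the 114497 long enough to hold one) of 10690 genes. Their host introns were long: the median over deep peaks was 27107 nt, against 3237 nt over introns long enough to hold a deep peak, a difference that the greater length open to peaks in long introns enters into. Per Mb of deep intron in genes with a peak in the library, the density was lower in longer introns. In K562 RBFOX2 had 45.9 ± 17.1 peaks per Mb in introns of 1 to 3 kb, 37.6 ± 14.7 in those of 3 to 10 kb, 31.3 ± 13.3 in those of 10 to 30 kb, 27.0 ± 12.1 in those of 30 to 100 kb and 20.1 ± 9.76 above 100 kb (SD, n = 3). The ratio of the 3 to 10 kb class to the class above 100 kb was 1.93 ± 0.19. In K562 this ratio was 1.62 ± 0.08 for LIN28B and 2.50 ± 0.24 for FAM120A, and it was 1.43 ± 0.10 for RBFOX2 in the HEK293T 10plex (n = 2). It was above 1 in every RBP and cell line. Genes without a peak in a library did not enter its density, and the part of this choice in the ratio was not tested.

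**Figure D5:**
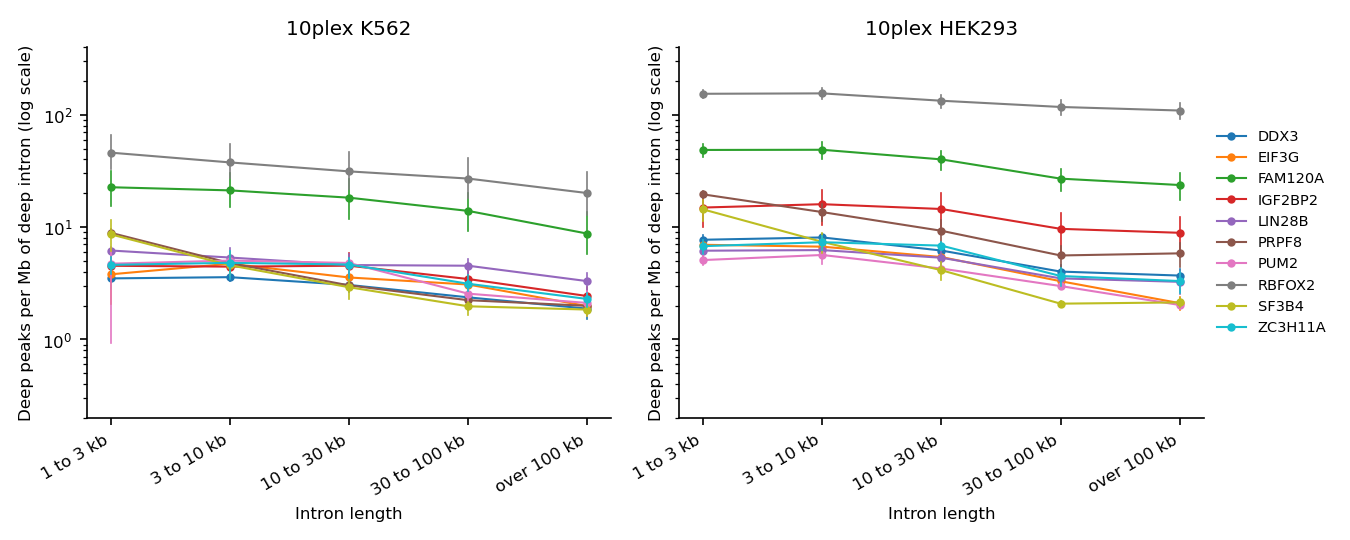
Deep peaks per Mb of deep intron in genes with a peak in the library (log scale) by intron length class for the 10 RBPs, in the 10plex of K562 (left) and HEK293T (right), with points at the mean and bars from the lowest to the highest replicate. Density is lower above 100 kb than at 3 to 10 kb in every line, and SF3B4 and PRPF8 in K562 fall from 8.62 and 8.90 to 1.84 and 1.99 per Mb.

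SF3B4 and PRPF8 were found in the shortest host introns. In K562 the median host intron of a deep SF3B4 peak was 11131, 8617 and 10054 nt, and that of a PRPF8 peak 11132, 10148 and 11868 nt, while the means of the other 8 RBPs ran from 18592 to 23476 nt. On the log10 scale SF3B4 was 0.29 lower than the other RBPs (adjusted p = 0.01) and PRPF8 0.24 lower (adjusted p = 0.04, both exact permutation, n = 3). In HEK293T SF3B4 again had the lowest medians (8638 and 7863 nt) and PRPF8 the next (12977 and 15198 nt). Both calls were lost when the distance from the intron ends was raised to 1000 or 2000 nt or when deep enriched peaks alone were used, and with at least 10 reads, where PUM2 alone was called, with longer introns. Density showed the same difference, since SF3B4 and PRPF8 had 8.62 ± 2.76 and 8.90 ± 0.67 peaks per Mb at 1 to 3 kb but 1.84 ± 0.30 and 1.99 ± 0.31 above 100 kb.

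Position within the intron differed little. The share of deep peaks nearer to the 5′ than the 3′ end of the intron was 64.3% ± 0.59 for FAM120A (adjusted p = 0.09, exact permutation, n = 3), 62.1% ± 3.14 for IGF2BP2, 58.3% ± 1.21 for RBFOX2 and 52.8% ± 1.70 for SF3B4, and no RBP passed the test. FAM120A passed it when deep enriched peaks alone were used. First introns held 33.8% ± 1.79 of deep RBFOX2 peaks and 25.1% ± 1.11 of SF3B4 peaks in K562. The share of deep peaks missing from the list without repeats, available for K562 replicates 1 and 2, was highest in ZC3H11A (73.0% ± 10.2, n = 2, adjusted p = 0.1, exact permutation) and lowest in RBFOX2 (41.3% ± 0.37), and again no RBP passed, with a smallest possible p of 0.01 before adjustment. The mean GC content was 48.9% ± 1.36 in deep enriched RBFOX2 peaks and 37.0% ± 0.41 in those of FAM120A in K562.

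The deep share was higher in HEK293T than in K562. Averaged over the 10 RBPs, it was 7.33%, 6.92% and 6.28% in the K562 pools and 10.5% and 11.8% in the HEK293T pools. The pools did not overlap, and the difference of 4.32 percentage points had an exact permutation p of 0.1, the smallest that 3 against 2 allow. RBFOX2 contributed most, with 45.5% and 47.3% in HEK293T. The HEK293T pools also held more peaks, 1191120 in 2 pools against 748856 in 3, and the part of depth in the share was not tested.

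Some genes held deep peaks mainly in 1 of the lines. Of all 10001 host genes, 62.3% held more deep peaks in both HEK293T pools than in all 3 K562 pools and 1.63% held more in all 3 K562 pools than in both HEK293T pools. The genes below were named after their counts were seen. In K562, PRKCB (protein kinase C beta) held 230, 386 and 152 deep 10plex peaks and none in either HEK293T pool, and CBFA2T3, a haematopoietic corepressor, held 156, 183 and 158 against 3 and 7. In HEK293T, SLIT2, a secreted axon guidance protein, held 755 and 965 against 0, 4 and 2, and DIP2C held 318 and 392 against none. For these genes the K562 and HEK293T counts did not overlap. Expression was not measured here, so more RNA and more binding per RNA cannot be told apart. RBFOX2 made up 41.4% to 49.6% of the PRKCB peaks and 23.5% to 25.9% of those in CBFA2T3, where FAM120A supplied more (62, 81 and 47 peaks).

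Of 9 genes with recursive splicing in brain, 7 held more deep peaks in both HEK293T pools than in all 3 K562 pools, and of 12 genes with very long introns at common fragile sites 6 did. Beside the 62.3% of all host genes, neither share is a result about these genes. Of the fragile site genes, FHIT held 27, 27 and 16 deep peaks in K562 and 417 and 711 in HEK293T, and WWOX held 14, 20 and 9 against 406 and 602. IMMP2L counts overlapped between K562 (74, 136 and 82) and HEK293T (73 and 121), although the HEK293T pools held more deep peaks. As a share of a pool's deep peaks IMMP2L was higher in K562 (0.426%, 0.434% and 0.558%) than in HEK293T (0.0736% and 0.0837%). LRP1B, PTPRG and MACROD2 had between 0 and 6 peaks in each K562 pool, with 126 and 223, 146 and 214, and 19 and 26 in HEK293T. Of the genes with recursive splicing, HS6ST3 held 2, 6 and 6 deep peaks in K562 and 82 and 120 in HEK293T, and CADM1 0, 0 and 2 against 58 and 82, of which 54 and 67 were RBFOX2. DMD was the only fragile site gene with fewer in both HEK293T pools (1 and 2) than in K562 (8, 10 and 8).

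Single genes collected several deep enriched peaks of an RBP. Peaks with a barcode word or the 13-base sequence were kept in these counts. Such a match lay at every DDX3, EIF3G, IGF2BP2 and ZC3H11A site enriched in all 3 K562 replicates, EMX1 among them. KIAA1958 led for FAM120A, with 9, 16 and 7 deep enriched peaks in K562 and 16 and 20 in HEK293T, all 68 of them in intron 2 of 3 (70398 nt), between 2293 and 54111 nt from its start at chr9:112577486-112629384 on the plus strand. FAM120A deep enriched peaks in NCAM2, a neural adhesion molecule, were 9, 10 and 6 in K562 and 0 and 2 in HEK293T. RBFOX2 led in AGAP1 with 3, 38 and 9 peaks in K562, where replicate 2 decides the mean, and in PCGF3, a Polycomb subunit, with 12, 24 and 6. In HEK293T DIP2C had 23 and 26 and STK32C 22 and 23. SF3B4 led in ERICH1 in both lines (2, 6 and 4; 4 and 7), and DDX3 had 17 and 14 deep enriched peaks in SLIT2 in HEK293T beside 44 and 54 deep DDX3 peaks in all. The leading genes of the other RBPs in K562 held at most 5 such peaks in a replicate: EMX1 for DDX3 (2, 2 and 2), GATA4 for EIF3G (2, 3 and 3), SSBP3 for IGF2BP2 (1, 3 and 0), PRKCB for LIN28B (5, 1 and 4), ENSG00000258472 for PRPF8 (3, 4 and 0), GPC6 for PUM2 (0, 2 and 1) and TAFA1 for ZC3H11A (2, 2 and 4).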

How the data were processed

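ABC libraries of 9 samples (54 libraries) were analysed. The authors trimmed adapters with cutadapt 2.8, removed repetitive-element reads, mapped with STAR 2.7.6 to GRCh38, removed PCR duplicates by molecular identifier and called peaks per library with CLIPper, with overlapping peaks merged. The deposited merged peaks hold a −log10 P-value (at most 400) and a log2 fold over an external background, and for K562 10plex replicate 3 a second set holds both over the CC. For the other 10plex pools the deposited lists give a chi-squared statistic over the CC, and deposited peak names end in a read count. CC reads were solved from these with pool totals of the study's supplementary tables (92.9% to 99.7% of solved values were whole). The HEK293T lists were made on unmerged peaks, so 68.8% to 91.5% of merged peaks had a CC value.

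Peaks were placed with GENCODE 44 (Python 3.11.15, pandas 2.3.3, bedtools 2.31.1, pysam 0.24.0). RBPs were compared by exact two-sided permutation of RBP labels within pools, with Benjamini-Hochberg adjustment (threshold 0.05). The test and the recovery were tested on simulated data. Pool means of the cell lines were compared without pairing. The RBP of a 10plex library was taken from its file's name, and barcode sequences from the supplementary tables. The members and gene lists were chosen with earlier results of these data known, and barcode words were searched after seeing the data. Named sites were the first 3 genes per RBP by mean log2 fold among deep peaks enriched in all 3 K562 replicates without the 13-base sequence within 30 nt, the 3 highest RBFOX2 peaks enriched in all 4 HEK293T libraries, the SLBP peak of lowest P, the SF3B4 to PRPF8 pairs found in most replicates, and per RBP the gene with most deep enriched peaks.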

Additional observations from a re-analysis of the deposited data

Results flagged for a closer look

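For 2 measures an RBP stood on opposite sides of the other 9 in the 2 cell lines, in every pool. The median log10 length of EIF3G host introns was above that of the other 9 RBPs in K562 (difference 0.12, from 0.03 to 0.20 over 3 replicates) and below it in HEK293T (-0.05, from -0.07 to -0.04 over 2), a change of -0.17. The share of DDX3 peaks nearer to the 5′ end was below that of the other 9 in K562 (-2.64 percentage points, from -3.36 to -1.83) and above it in HEK293T (2.68, from 1.90 to 3.46), a change of 5.32. Neither difference between the lines was tested, and EIF3G and DDX3 were not past the threshold in either measure in K562.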

How the results depend on the processing

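RBFOX2 was called for its deep share of merged peaks and of enriched peaks, 1 RBP in each, and 0 RBPs were called for either when any replicate was left out (0 to 0) or with HEK293T in place of K562, and 0 for merged peaks with repeats left out, all settings with 2 pools, where p cannot go below 0.01. For host intron length 2 RBPs were called, and 0 without any of the replicates (0 to 0), with HEK293T, beyond 1000 or 2000 nt, with repeats left out or with deep enriched peaks, and 1 (PUM2, longer) with at least 10 reads. The 13-base sequence called 1 RBP in place of 0 beyond 2000 nt (DDX3), over the external background (EIF3G) and beyond 500 nt from exons of every transcript (DDX3). Deep enriched peaks alone called 1 RBP (FAM120A) for the 5′ end. The GGAG difference, 17.3 percentage points, lost its call without a replicate (15.6 to 19.3), with HEK293T (10.3), beyond 2000 nt (19.1), at P below 1e-05 and fold above 16 (21.6) and in the peak alone (13.2), and the 3′ splice site motif in the peak alone (3.31). The TGTANATA difference turned to 0.42 in HEK293T. Sharing of deep peaks, 32.8%, became 34.0% beyond 1000 nt, 34.6% beyond 2000 nt, 69.6% with at least 10 reads, 31.6% when at least 50% of the shorter peak had to overlap and 32.4% beyond 500 nt from every exon. The cause of these changes was not tested beyond the number of pools. GCATG and the 5′ splice site motif kept their calls in all 13 alternatives run. The distance from exons of every transcript and leaving out barcode words were added after seeing the data.

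With the replicate block for equal numbers, the HEK293T to K562 difference was 4.04 percentage points (exact permutation p = 0.5). Without the replicate block no call of the RBP comparisons changed.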
